A study of Mus musculus with 6 samples.

Results

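Constitutive proteasome subunit genes were measured as RNA in exosomes, the small vesicles that cells release, from mouse bone marrow dendritic cells of the C57BL/6 strain. The genes were all those in the deposited transcript table named Psma, Psmb, Psmc or Psmd with a number, without Psmb8, Psmb9 and Psmb10, the inducible immunoproteasome subunits. This gave 35 genes, represented by 80 transcripts, out of 12375 gene names and 27544 transcripts. There were 8 Psma, 7 Psmb, 6 Psmc and 14 Psmd genes. Each group had 3 libraries. Both groups came from marrow cells grown to day 7 with the cytokines GM-CSF at 20 ng/ml and interleukin-4 at 10 ng/ml. The mature cultures then received 5 µg/ml lipopolysaccharide, a bacterial cell wall component, for 24 h, and the immature cultures received buffer. Vesicles were collected by ultracentrifugation from medium conditioned for a further 48 h after washing. Groups follow the sample titles, because another label calls every sample untreated and so goes against the growth protocol. In each trio of values, libraries 1, 2 and 3 of a group come in that order. Whether they came from separate cultures is not stated. The p-values therefore set a group difference only against the spread between these libraries, which may be technical.

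The proteasome is the main machine by which cells degrade proteins tagged with ubiquitin. Its core particle is a barrel of stacked rings, with outer rings of Psma (alpha) subunits that gate entry and inner rings of Psmb (beta) subunits, of which Psmb5, Psmb6 and Psmb7 carry the proteolytic sites. The regulatory particle caps the barrel: its Psmc subunits form a ring of ATPases that unfold substrates, and its Psmd subunits include ubiquitin receptors, scaffolds and the deubiquitinase Psmd14. In antigen-presenting cells the proteasome also makes peptides for MHC class I, and cytokine-induced Psmb8, Psmb9 and Psmb10 can replace the constitutive catalytic subunits.

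Values are FPKM, fragments scaled by transcript length and by the mapped fragments of the library, summed over the transcripts of a gene. FPKM values do not give the number of reads, and the depth behind each value is unknown. Dendritic cell markers were present: Cd74 ranged from 265 to 615 FPKM in immature and from 601 to 1461 FPKM in mature exosomes, while Flt3 did not exceed 0.91 FPKM in any library. The dendritic cell list (9 of 9 genes found, 8 tested, 0 past the test) summed to 680 to 1543 FPKM in immature and to 1645 to 2786 FPKM in mature exosomes. As deposited these sums did not overlap, but most of each came from Cd74, H2-Ab1 and H2-Aa. Itgax overlapped, at 7.36 to 54.9 FPKM in immature and 21.1 to 32.2 FPKM in mature exosomes. The sums were not divided by the summed FPKM of all genes, which ran from 130401 (mature library 1) to 281368 (mature library 2). The list of 3 vesicle tetraspanins summed to 56.1 to 208 FPKM and 100 to 335 FPKM. Among 8 maturation genes, 4 passed the test between groups (Ccl5, Saa3, Il1b and Il1a). The neutrophil list (8 of 8 genes found) summed to 183 to 1216 FPKM in the immature and 247 to 1114 FPKM in the mature libraries. The macrophage list (6 of 6) summed to 83.8 to 99.4 FPKM and 81.4 to 210 FPKM. The erythroid list (5 of 5) summed to 13.6 to 449 FPKM and 19.3 to 263 FPKM. The T and NK list (3 of 4, without Ncr1) stayed at or under 11.99 FPKM. Immature library 2 and mature library 1 stood apart, with 10912 and 12924 transcripts that reached 0.5 FPKM against 15432 to 18775 in the other libraries. In them mitochondrially encoded genes held 2.55% and 0.94% of the summed FPKM, against 0.0696% to 0.282%. The part of these differences in the results that follow was not tested, and values without both libraries are given beside the counts. In bulk vesicle RNA, more of a transcript per vesicle, more vesicles of one kind and RNA carried along with the vesicles cannot be told apart.

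RNA of the whole constitutive particle was detected in exosomes of both groups. Of the 35 genes, 34 reached 0.5 FPKM in all 6 libraries, from 0.677 FPKM for Psmd6 in immature library 2 to 244 FPKM for Psmb6 in mature library 3. The exception was Psma8, a testis-specific alpha subunit gene on chromosome 18. It was listed at 0, 0.142 and 0.641 FPKM in immature libraries 1, 2 and 3 and at 0, 0.354 and 0 FPKM in their mature counterparts, and was not tested. The filter for testing, which asked for 0.5 FPKM or more in 3 or more libraries, therefore removed no widely expressed subunit. Together the 35 genes summed to 546, 736 and 612 FPKM in immature exosomes and to 749, 1209 and 1148 FPKM in mature exosomes. These sums did not overlap between the groups. As a share of all FPKM in a library, however, they made up 0.375%, 0.542% and 0.287% in the immature libraries and 0.575%, 0.430% and 0.467% in the mature ones, and these shares overlapped.

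Core subunit RNA was more abundant than regulatory subunit RNA in every library. The median of the 14 tested Psma and Psmb genes was 18.4, 28.6 and 21.4 FPKM in immature and 26.0, 52.3 and 42.1 FPKM in mature exosomes. The median of the 20 Psmc and Psmd genes was 6.45, 10.0 and 8.78 FPKM in immature and 10.2, 15.8 and 13.4 FPKM in mature exosomes. The ratio of the medians lay between 2.43 and 3.31 and averaged 2.72 ± 0.25 (SD, n = 3) for immature and 2.998 ± 0.40 for mature exosomes, and the values of the groups overlapped. FPKM is scaled by transcript length, but this allows only a rough comparison between genes. The depth is unknown, and pseudogenes and paralogs may share reads. Within a library the highest tested subunit stood 34.1-fold to 95.4-fold above the lowest, which was Psmd5 or Psmd9, genes for assembly chaperones, in 4 of the 6 libraries.

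**Figure D1:**
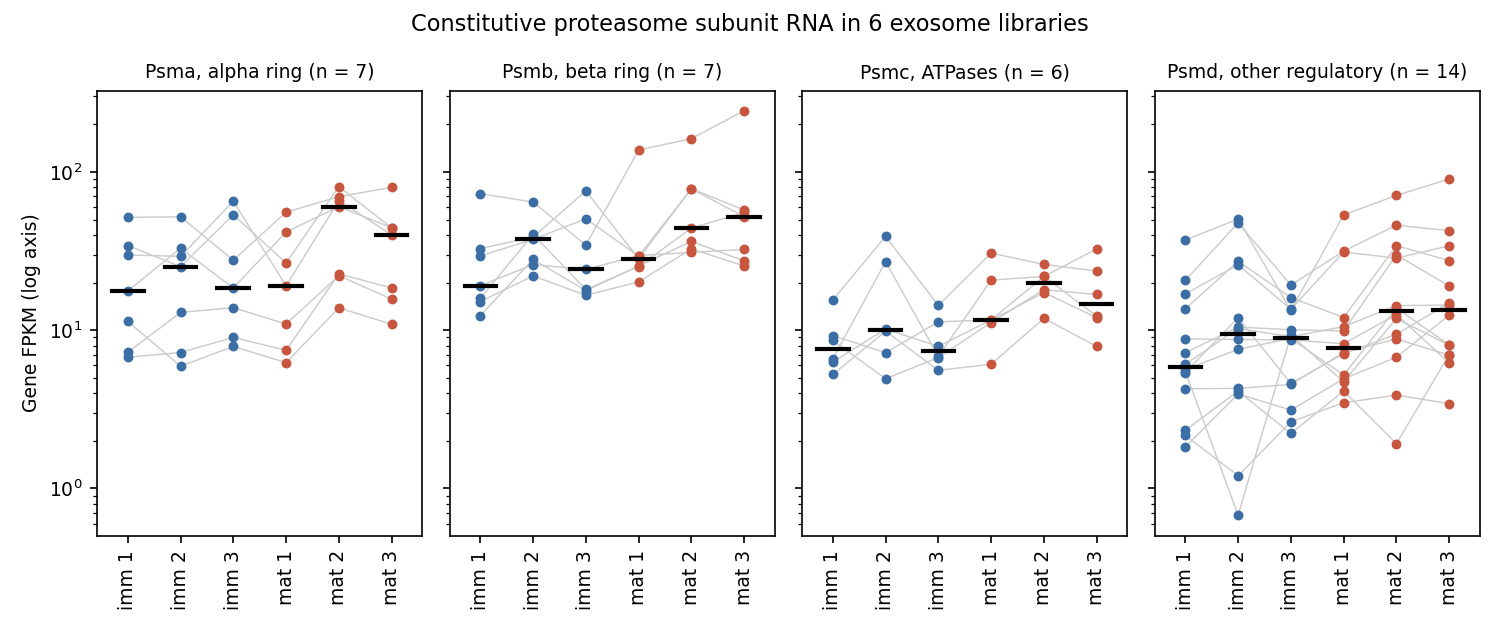
Gene FPKM (log axis) of the 34 tested subunit genes in each library, by class; points are genes, grey lines join the values of a gene, black bars are class medians, and imm and mat are immature (blue) and mature (red). The beta ring holds the highest single gene, Psmb6, at 138 to 244 FPKM in the mature libraries.

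No subunit gene passed the test between groups, although most had higher values in the mature libraries. Differences were tested with limma on log2(FPKM + 1) across 10272 genes, with Benjamini-Hochberg adjusted p under 0.05 as the threshold. On this scale fold changes of genes with low values are understated. Of the 34 tested subunit genes 0 passed, against 0.185% of all genes tested that passed as higher and 0 that passed as lower. At an unadjusted p under 0.05 in limma, 4 of 34 were higher (11.8%), namely Psmb6, Psmc2, Psma6 and Psmd3, against 9.52% of all genes, and 0 were lower. Log2 fold changes were above 0 for 32 of 34 subunit genes (94.1%), against 76.4% of all genes. They were above 0 for fewer subunit genes under other scalings of the libraries, for 22 with median-of-ratios scaling, 20 with upper-quartile scaling, 21 with quantile normalization and 26 with equal sums. The median log2 fold change was 0.61 over the subunit genes and 0.38 over all genes tested, and 23 of the 34 lay above the median of all genes. With a pseudocount of 0.1 in place of 1 the medians were 0.66 and 0.55, and 20 of the 34 lay above. Between libraries of a group, the median of the subunit genes had a standard deviation of 0.27 on the log2 scale.

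In 13 of 34 subunit genes (38.2%) all 3 mature values stood above all 3 immature values, against 16.7% of all genes tested. In 0 subunit genes did they all stand below, against 0.643% of all genes. The 13 genes were Psma6, Psma7, Psmb3, Psmb6, Psmc1, Psmc2, Psmc6, Psmd2, Psmd3, Psmd5, Psmd8, Psmd11 and Psmd12. Subunit genes share libraries, so these are not 13 independent observations. The count depended on how libraries were scaled. After median-of-ratios scaling 1 gene remained, Psmc2, against 7.6% of all genes. After upper-quartile scaling or quantile normalization Psmb6 and Psmc2 remained, against 7.38% and 7.15% of all genes. With libraries brought to equal sums the genes were Psma2, Psmb6 and Psmc2, against 10.1% of all genes. Left as deposited but without both immature library 2 and mature library 1, 26 of 34 subunit genes (76.5%) did not overlap, against 48.2% of all genes. Without immature library 2 alone the count was 21 (all genes 23.3%), and without mature library 1 alone it was 20 (all genes 40.8%). With the other libraries left out in turn it was 13 without immature library 1 (all genes 20.1%), 14 without immature library 3 (all genes 26.8%), 14 without mature library 2 (all genes 19.7%) and 13 without mature library 3 (all genes 18.4%). From coding transcripts only, 11 genes did not overlap, against 17.4% of all genes.

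**Figure D2:**
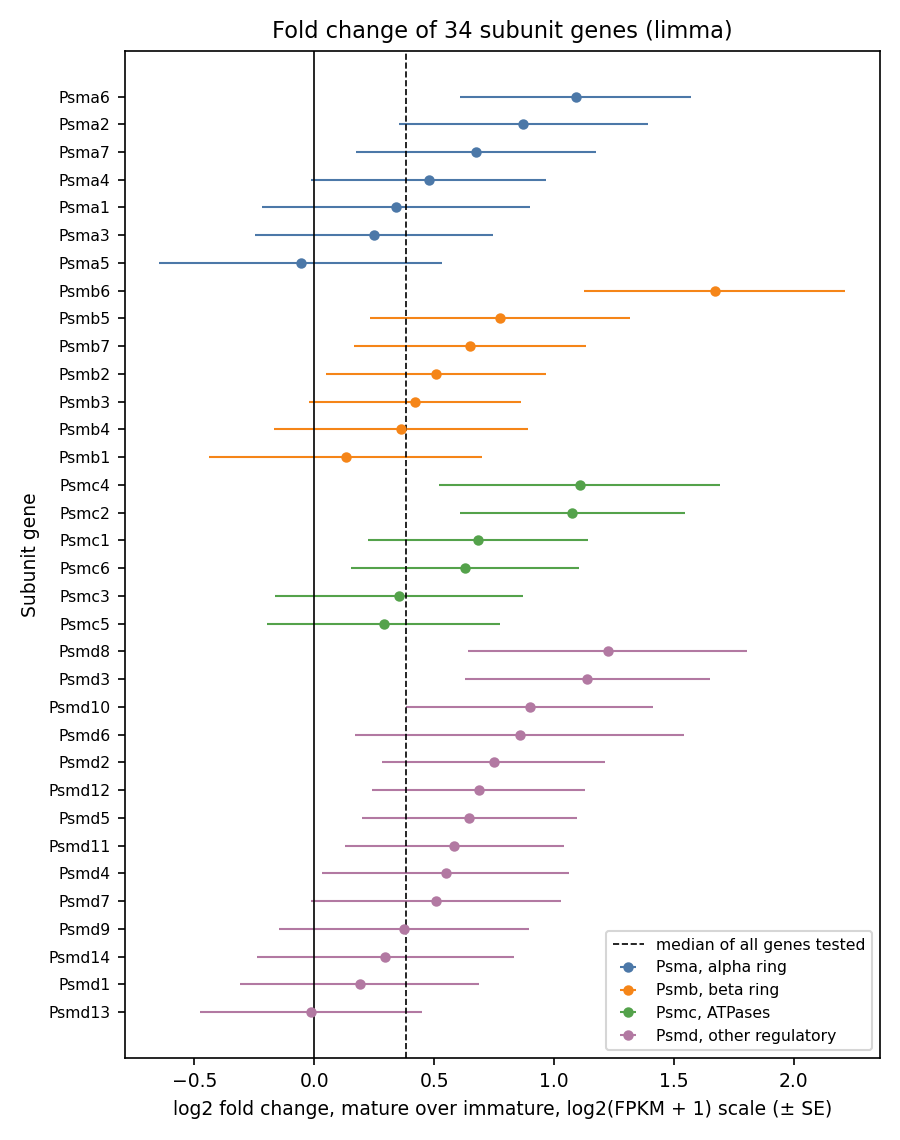
Log2 fold change (mature over immature, log2(FPKM + 1) scale) of the 34 tested subunit genes, with bars for the limma standard error; colours are classes, the solid line is 0 and the dashed line the median of all genes tested, 0.38. Psmb6 lies farthest to the right at 1.67, and 2 genes, Psma5 and Psmd13, lie below 0.

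The scalings also moved the list as a whole. The median log2 fold change over the subunit genes was 0.14 with median-of-ratios scaling, 0.11 with upper-quartile scaling, 0.13 with quantile normalization and 0.29 with equal sums. The medians over all genes were then 0.02, 0.00, -0.02 and 0.19. Relative to the median of all genes the subunit median was 0.22 higher as deposited, between 0.10 and 0.15 higher under these scalings and 0.10 higher with a pseudocount of 0.1. It was 0.05 higher without immature library 1 and 0.47 higher without immature library 2, the extremes among single libraries left out. The number of subunit genes at an unadjusted p under 0.05 in limma moved from 4 to 0 with median-of-ratios scaling (4.67% of all genes), with upper-quartile scaling (4.46%) and without mature library 3 (3.77%). It was 1 with quantile normalization (4.49%), with equal sums (5.74%) and without immature library 1 (5.83%), immature library 3 (10.2%) or mature library 2 (6.41%). Leaving out immature library 2 gave 5 (8.27%), leaving out mature library 1 gave 6 (16.9%) and leaving out both gave 14 (19.3%).

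**Figure D3:**
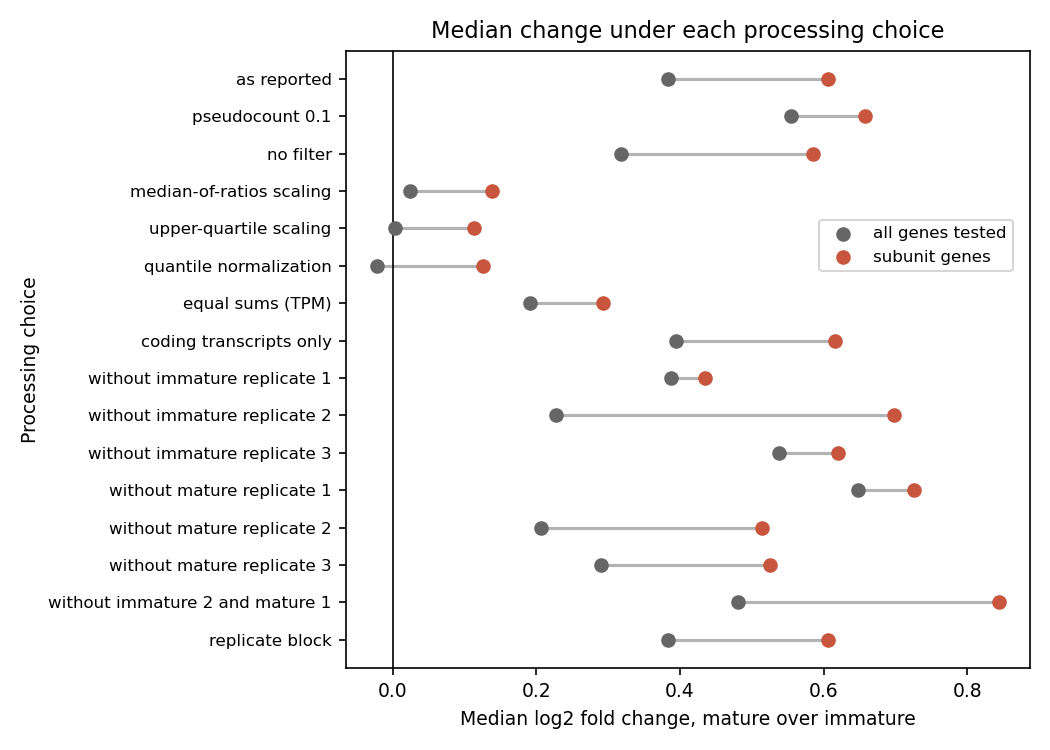
Median log2 fold change (x axis, mature over immature) over the subunit genes (red) and over all genes tested (grey) under each processing choice (y axis). The subunit median lies to the right of the median of all genes at every choice, and both move close to 0 under median-of-ratios, upper-quartile and quantile scaling.

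Among the beta subunits, Psmb6 had the highest mean level and the largest difference. Psmb6 encodes the constitutive catalytic subunit that cleaves after acidic residues, and on GRCm38 the table places it at chromosome 11, 70525386 to 70527649, on the plus strand. It stood at 72.9, 64.5 and 34.5 FPKM in immature and at 138, 162 and 244 FPKM in mature exosomes. All mature values lay above all immature values. The log2 fold change was 1.67 (SE 0.55), which did not pass the test (limma adjusted p = 0.358), and it was 1.14 to 1.32 under the 4 other scalings. Psmb6-201 was the only listed transcript of the gene, and no other listed gene overlapped it.

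The sequence before the RefSeq transcription start of Psmb6 is shown because it was the subunit gene with the smallest p. The 250 bases up to the start, chr11:70525107-70525356 on the plus strand of GRCm38.p6, are printed with capitals for 2 motifs found by a search of both strands: TGACNNNGC, the core of the antioxidant response element that Nfe2l1 and Nfe2l2 bind, and GGGCGG, the GC box, which is seen here as its reverse complement.
Psmb6: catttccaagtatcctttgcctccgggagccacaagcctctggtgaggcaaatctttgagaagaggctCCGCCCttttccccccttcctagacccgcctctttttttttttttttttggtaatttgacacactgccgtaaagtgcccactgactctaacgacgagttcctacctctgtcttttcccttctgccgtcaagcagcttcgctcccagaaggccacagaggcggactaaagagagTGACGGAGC

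RefSeq promoter windows, from 250 bases before to 50 after a start, were found for 28 of the 35 subunit genes, in 30 windows. TGACNNNGC occurred in 5 of the 30 windows (16.7%) and in 12.4% of all 32851 windows. The matches, with the motif in capitals, lay as follows on GRCm38.p6, written along the gene's strand, and are shown because Nfe2l1 is known to drive proteasome subunit genes when the proteasome is inhibited. In Psmd12 and Psmc6 the motif is read on the other strand.
Psmb6, chr11:70525338-70525366, plus strand: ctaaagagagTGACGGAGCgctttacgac
Psmb5, chr14:54618024-54618052, minus strand: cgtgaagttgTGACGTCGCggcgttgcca
Psmc6, chr14:45329587-45329615, plus strand: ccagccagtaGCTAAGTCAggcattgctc
Psmd9, chr5:123228149-123228177, plus strand: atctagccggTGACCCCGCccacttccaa
Psmd12, chr11:107479278-107479299, plus strand: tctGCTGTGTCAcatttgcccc

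A match is a match of letters only. CCAAT, the core of the NF-Y box, occurred in 11 of 30 windows (36.7%) and in 37.4% of all windows, and GGGCGG in 18 of 30 (60.0%) and in 35.7%. All motifs were searched on both strands, and overlaps between different motifs were allowed. The RNA of Nfe2l1 stood at 15.3, 5.91 and 16.5 FPKM in immature and at 9.82, 13.5 and 24.2 FPKM in mature exosomes, with overlapping groups. Among the 5 genes with TGACNNNGC, log2 fold changes ran from 0.37 for Psmd9 to 1.67 for Psmb6.

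The other catalytic subunits overlapped between groups. Psmb5, the chymotrypsin-like subunit gene, was at 15.9, 40.3 and 18.1 FPKM in immature and at 25.2, 44.2 and 55.5 FPKM in mature exosomes. Immature library 2 lay within the mature range (log2 fold change 0.78 with SE 0.54, limma adjusted p = 0.671). Psmb7, the trypsin-like subunit gene, was at 12.4, 28.0 and 17.8 FPKM and at 25.5, 36.4 and 27.4 FPKM, again with immature library 2 inside the mature range (log2 fold change 0.65 with SE 0.49, limma adjusted p = 0.696). Psmb7 overlaps Nek6 on the opposite strand over 6571 bases, and Psmd13 overlaps Sirt3 on the opposite strand over 331. Whether the counting used strand is not given in the sources used here, so reads of these genes may have been mixed.

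The non-catalytic beta subunit genes Psmb1 and Psmb4 were abundant in some libraries of both groups. Psmb1 was at 32.8, 38.7 and 75.9 FPKM in immature and at 28.3, 78.4 and 57.4 FPKM in mature exosomes. Psmb4 was at 29.5, 37.4 and 50.6 FPKM and at 29.4, 78.2 and 52.3 FPKM. For both genes mature library 1 was the lowest of all 6 and mature library 2 the highest, and the groups overlapped. Their log2 fold changes were 0.13 (SE 0.57) and 0.36 (SE 0.53) and turned negative with median-of-ratios, upper-quartile or quantile scaling, Psmb1 also with equal sums. Psmb2, the least abundant beta subunit gene, was at 15.2, 22.0 and 16.6 FPKM and at 20.2, 32.7 and 25.4 FPKM, with a log2 fold change of 0.51 (SE 0.46) that was -0.01 with upper-quartile scaling and 1.20 from coding transcripts only. A processed transcript, Psmb2-203, held 25.5% of the mean FPKM of Psmb2, but unevenly. It was at 7.25, 17.1 and 1.12 FPKM in immature and at 3.21, 1.89 and 3.12 FPKM in mature exosomes. In immature library 2 it thus made up most of the 22.0 FPKM of the gene.

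In the alpha ring Psma7, Psma1 and Psma5 were the most abundant genes. Psma7 was at 51.6, 52.1 and 27.7 FPKM in immature and at 55.7, 69.7 and 80.005 FPKM in mature exosomes. The groups did not overlap, although mature library 1 came close to immature library 2 (log2 fold change 0.67 with SE 0.50, limma adjusted p = 0.693). Psma1 was at 34.3, 25.2 and 53.6 FPKM and at 26.6, 80.9 and 44.2 FPKM. Psma5 was at 29.9, 29.3 and 65.4 FPKM and at 19.05, 65.9 and 40.0 FPKM, so its lowest value was in a mature library and its second highest in an immature one. Their log2 fold changes were 0.34 (SE 0.56) and -0.06 (SE 0.59), and for Psma1 the sign was negative under all 4 other scalings.

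Psma6 and Psma2 had the smallest p among the alpha subunits. Psma6 was at 17.7, 32.9 and 18.5 FPKM in immature and at 41.8, 60.4 and 44.5 FPKM in mature exosomes, with no overlap (log2 fold change 1.09 with SE 0.48, limma adjusted p = 0.501). Psma2 was at 6.75, 7.23 and 9.01 FPKM and at 7.47, 22.7 and 18.5 FPKM (log2 fold change 0.87 with SE 0.52, limma adjusted p = 0.612). Mature library 1 lay within the immature range for Psma2. Psma2 overlaps the listed gene AW209491 on the same strand, as Psmd12 does Gm11722, and reads there cannot be assigned with certainty. Psma3 and Psma4 had log2 fold changes of 0.25 and 0.48.

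**Figure D4:**
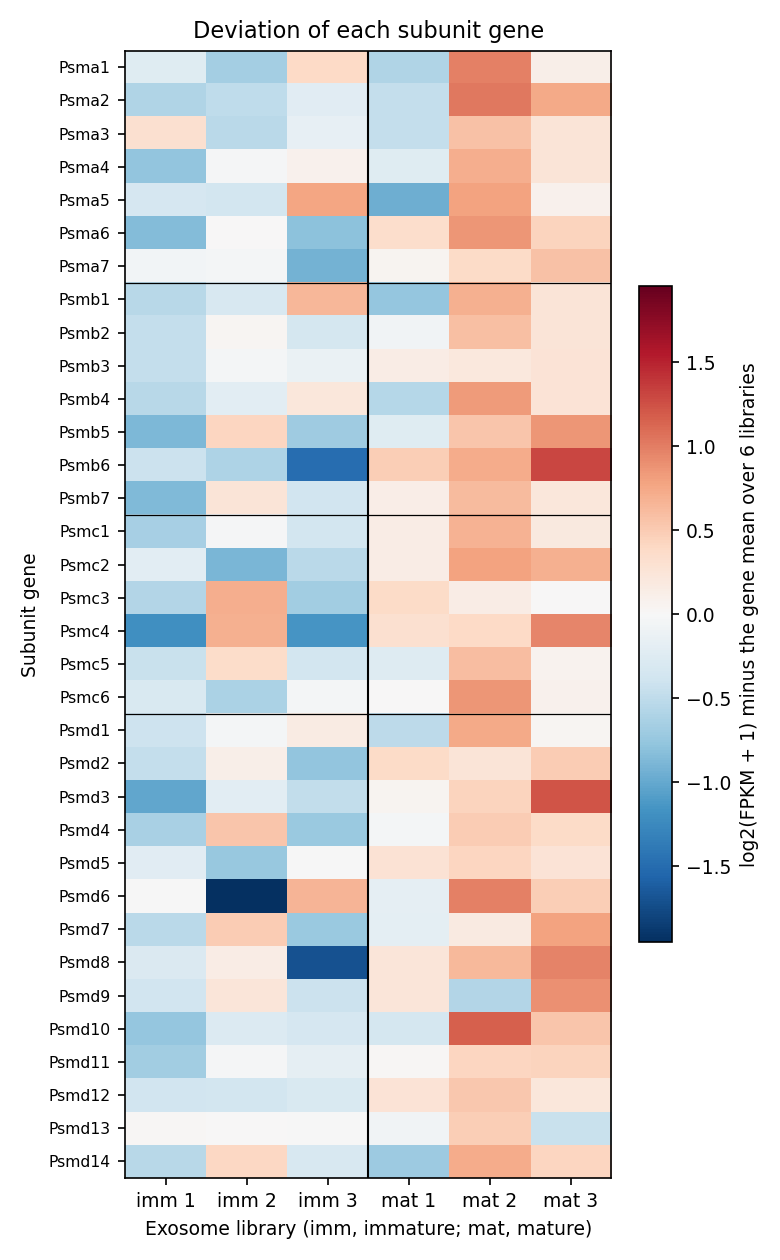
Log2(FPKM + 1) of each tested subunit gene in each library minus the mean of that gene over the 6 libraries; rows are genes, columns are libraries (imm, immature; mat, mature), and red is above and blue below the mean. Mature libraries 2 and 3 are mostly red, immature library 1 is mostly blue, and immature library 3 holds both red (Psma5, Psmb1, Psmd6) and dark blue (Psmb6, Psmd8) cells.

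Among the ATPase genes Psmc2 separated the groups under all scalings tried. It was at 8.61, 4.94 and 6.72 FPKM in immature and at 11.2, 18.0 and 16.8 FPKM in mature exosomes. The log2 fold change was 1.08 (SE 0.47, limma adjusted p = 0.491), and Psmc2-201 was the only listed transcript. Psmc4 was at 6.59, 27.1 and 6.82 FPKM and at 20.7, 21.9 and 32.6 FPKM. Only immature library 2 reached the mature range (log2 fold change 1.11 with SE 0.59, limma adjusted p = 0.564).

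Psmc3 was the most abundant ATPase gene on average, at 15.5, 39.1 and 14.3 FPKM in immature and 30.7, 26.0 and 23.7 FPKM in mature exosomes. Its highest value was in immature library 2. Psmc6 was at 9.24, 7.21 and 11.3 FPKM and at 11.6, 21.9 and 12.3 FPKM, with groups that came close but did not overlap. From coding transcripts only the groups of Psmc6 overlapped, and its log2 fold change was 0.13. Psmc5, the least abundant, was at 5.25, 9.86 and 5.58 FPKM and at 6.10, 11.9 and 7.91 FPKM. Their log2 fold changes were 0.35 (SE 0.52), 0.63 (SE 0.47) and 0.29 (SE 0.49), and those of Psmc3 and Psmc5 turned negative with median-of-ratios, upper-quartile or quantile scaling.

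Of the remaining regulatory subunits, the lid, which removes ubiquitin chains, has 8 genes here, with log2 fold changes from -0.01 to 1.22 and a median of 0.64. Psmd8 was the most abundant, at 37.2, 50.4 and 13.3 FPKM in immature and 53.5, 71.1 and 90.2 FPKM in mature exosomes. The groups did not overlap (log2 fold change 1.22 with SE 0.58, limma adjusted p = 0.525). Psmd3 was low, at 1.83, 3.96 and 3.13 FPKM and at 4.93, 6.74 and 12.5 FPKM, also without overlap (log2 fold change 1.14 with SE 0.51, limma adjusted p = 0.507). Psmd14, whose product is the deubiquitinase of the lid, was at 13.7, 27.2 and 16.1 FPKM and at 12.03, 34.2 and 27.5 FPKM. Its groups overlapped, and its log2 fold change of 0.30 (SE 0.54) turned negative under all 4 other scalings. Psmd12 had the smallest spread within groups of all tested subunit genes, a standard deviation of 0.12 on the log2 scale, and stood at 4.27, 4.29 and 4.54 FPKM against 7.23, 8.80 and 6.96 FPKM (log2 fold change 0.69 with SE 0.44, limma adjusted p = 0.652). Psmd6 had the largest, 1.05, being at 0.677 FPKM in immature library 2 and between 4.72 and 11.9 FPKM in the other libraries. Psmd12 and Psmd6 lie outside the naming rule and were singled out with their values in view.

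The base of the regulatory particle holds Psmd2, a scaffold where shuttle proteins dock, and Psmd4, a ubiquitin receptor. Psmd2 was at 17.0, 25.9 and 13.6 FPKM in immature and at 31.2, 28.5 and 34.1 FPKM in mature exosomes, without overlap (log2 fold change 0.75 with SE 0.46, limma adjusted p = 0.631). From coding transcripts only the groups of Psmd2 overlapped, and its log2 fold change was 0.58. The coding transcript Psmd2-201 was at 25.4 FPKM in immature library 2 and at 23.2 FPKM in mature library 1. In mature library 1 the processed transcript Psmd2-205 was at 7.22 FPKM. Psmd4 was at 20.6, 47.7 and 19.3 FPKM and at 31.6, 46.1 and 42.6 FPKM, and its highest value was in immature library 2 (log2 fold change 0.55 with SE 0.52, limma adjusted p = 0.764). Psmd5, Psmd9 and Psmd10 encode chaperones that help assemble the base and had log2 fold changes of 0.65, 0.37 and 0.90. Psmd5 was the least abundant tested subunit gene, at 2.16, 1.20 and 2.64 FPKM and at 3.48, 3.89 and 3.44 FPKM, without overlap (SE 0.45, limma adjusted p = 0.671).

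Most of these fold changes depended on the scaling. With upper-quartile scaling the log2 fold changes of the genes that had the highest ones were 1.14 for Psmb6, 0.69 for Psmd8, 0.69 for Psmd3, 0.60 for Psmc4, 0.59 for Psmc2 and 0.57 for Psma6. They were 0.37 for Psma2, 0.25 for Psmb5, 0.23 for Psmd2, 0.14 for Psma7, 0.14 for Psmc6, 0.13 for Psmb7, 0.28 for Psmd5 and 0.023 for Psmd4. With single libraries left out, the value of Psmd8 was lowest at 0.68 without immature library 3, that of Psma7 at 0.38 without the same library, and that of Psmb7 at 0.38 without immature library 1. Psmc4 was at 1.73, Psmb5 at 1.18 and Psmd4 at 0.95 without immature library 2, and Psmd4 at 0.32 without immature library 3. Psma2 ranged from 0.58 without mature library 2 to 1.32 without mature library 1, and Psmc6 was at 0.35 without mature library 2. Among genes with lower values, Psmb4 ranged from 0.035 to 0.73, Psmc3 from 0.10 to 0.80, Psmc5 from 0.057 to 0.54 and Psmd14 from 0.0066 to 0.72 with 1 library left out. From coding transcripts only, Psmc3 was at 0.54 and Psmd14 at 0.51.

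The subunit genes did not move as one unit between libraries of the same group. Mature library 2 held the highest value of 21 of the 34 tested genes and mature library 3 that of 11, while immature library 1 held the lowest value of 14. The share of all genes for these counts is not given here, but all genes moved the same way in these libraries. Their median deviation from the gene mean on the log2 scale was 0.54, 0.38 and -0.20 in that order of libraries. For the subunit genes it was 0.62, 0.32 and -0.47. Immature library 3 was split. Relative to the mean of immature libraries 1 and 2 on the log2 scale it was lower for 18 genes, down to -1.63 for Psmd8 and -0.97 for Psmb6, and higher for 16, up to 1.64 for Psmd6, 1.12 for Psma5 and 1.07 for Psmb1. The median was -0.02 for the subunit genes and 0.45 for all genes tested. Immature library 3 also had the highest sums of the neutrophil and erythroid lists in its group (1216 and 449 FPKM), and their part in this split was not tested. Within groups, the standard deviation on the log2 scale had a median of 0.49 over the subunit genes and 0.61 over all genes tested.

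At the level of single transcripts 0 of 58 tested subunit transcripts passed (limma, adjusted over 15972 transcripts), against 0.0626% of all transcripts that passed as higher and 0.0125% as lower. At an unadjusted p under 0.05, 5 were higher and 1 was lower in limma, against 7.39% and 0.682% of all transcripts. All mature values stood above all immature ones for 14 subunit transcripts (13.1% of all transcripts) and below for 0 (1.39% of all transcripts). The median log2 fold change was 0.61 over the tested subunit transcripts and 0.31 over all transcripts, of which 70.3% lay above 0. Of the 80 listed transcripts 56 were typed protein coding and 24 processed transcripts, which do not encode the subunit. The processed transcripts made up 3.02% of the subunit FPKM. For 25 of 35 genes 1 transcript gave at least 80% of the gene's FPKM, and for 27 the same transcript led in all 6 libraries.

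The transcripts with the smallest p were Psmb6-201, described above as the gene, and others from Psmd8, Psmb2 and Psmd14. The FPKM of Psmd8 was divided among 3 coding transcripts. Psmd8-201 was at 21.6, 0.266 and 2.79 FPKM in immature and at 43.7, 21.0 and 25.5 FPKM in mature exosomes (log2 fold change 2.63 with SE 0.94, limma adjusted p = 0.513). Psmd8-202 was at 1.26, 0.153 and 8.53 FPKM and at 3.10, 23.2 and 26.3 FPKM (log2 fold change 2.26 with SE 0.96, limma adjusted p = 0.584). Both overlapped between groups. Psmd8-203 was at 14.3, 49.99 and 1.998 FPKM and at 6.72, 26.9 and 38.4 FPKM. The transcript given the largest part of the gene's FPKM thus differed between libraries of the same group, in both groups.

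The processed transcript Psmb2-202 was at 0.267, 0.252 and 0.214 FPKM in immature and at 3.39, 1.34 and 1.56 FPKM in mature exosomes, without overlap (log2 fold change 1.26 with SE 0.46, limma adjusted p = 0.518). Psmd14-204, also a processed transcript, was at 2.32, 7.66 and 0.701 FPKM and at 0.0555, 0.731 and 0.140 FPKM. It was the 1 subunit transcript lower at an unadjusted p under 0.05 (log2 fold change -1.52 with SE 0.65, limma adjusted p = 0.595). Psmd12 changed its leading transcript between libraries but not along the groups. Psmd12-203 was at 4.19 and 8.07 FPKM in immature library 2 and mature library 2 and listed at 0 in the other 4, where Psmd12-201 stood between 4.27 and 7.23 FPKM. How reads were shared out among overlapping transcripts sets such values.

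The inducible catalytic subunits were set against their constitutive counterparts as ratios within a library, which a common scale factor for a library does not change. Psmb8 stood at 15.5, 48.3 and 10.5 FPKM in immature and at 30.7, 42.3 and 62.1 FPKM in mature exosomes. The log2 ratio of Psmb8 to Psmb5 was -0.03, 0.26 and -0.78 in the immature libraries and 0.28, -0.06 and 0.16 in the mature ones. The log2 ratio of Psmb9 to Psmb6 was -2.30, -1.71 and -2.84 and then -2.60, -2.54 and -2.19. The log2 ratio of Psmb10 to Psmb7 was -0.74, -1.89 and -0.89 and then -1.002, -0.69 and 0.28. All 3 ratios overlapped between groups.

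The mean log2 ratios differed by 0.31, -0.16 and 0.71 between mature and immature libraries, with standard deviations (n = 3) of 0.54, 0.56 and 0.63 in the immature group. The 2-sided exact permutation p-values were 0.6, 0.7 and 0.4, each 0.7 after Benjamini-Hochberg adjustment over the 3 ratios, and 3 against 3 libraries cannot give a p below 0.1. The difference for Psmb8 to Psmb5 was 0.01 without immature library 3 and 0.53 without immature library 2, and without immature library 2 that for Psmb9 to Psmb6 was 0.13. For Psmb10 to Psmb7 it was 0.35 without immature library 2 and 0.33 without mature library 3.

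**Figure D5:**
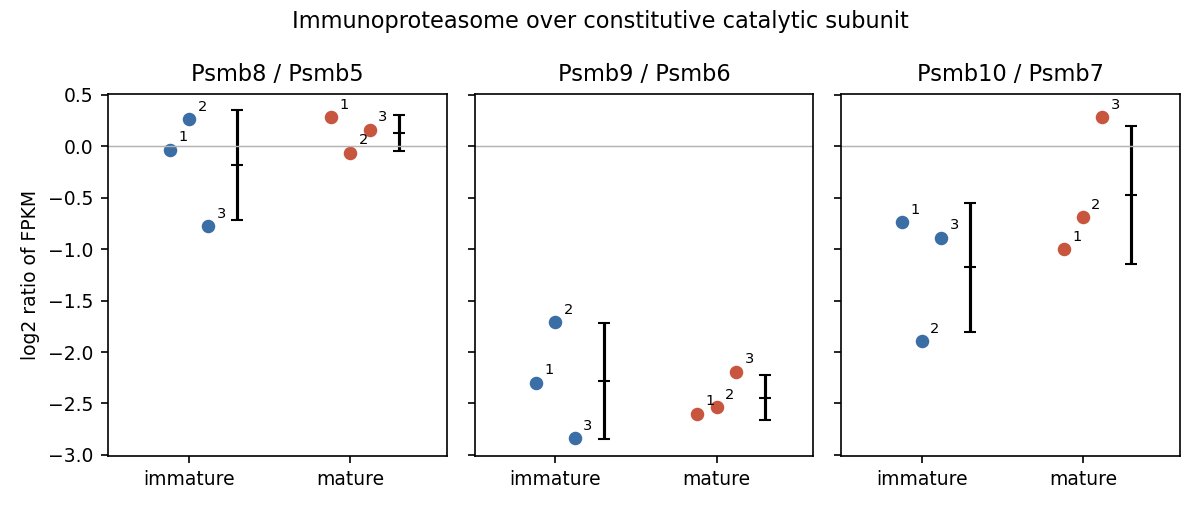
Log2 ratio of FPKM of each immunoproteasome catalytic subunit gene to its constitutive counterpart in each library; points are libraries with their replicate number, and bars are the mean ± SD (n = 3). The groups overlap in all 3 panels, and Psmb9 stays below Psmb6 in every library.

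The wider ubiquitin and proteasome pathway was read from a fixed list of 34 other genes, the 3 inducible subunits included. Of 33 tested, 0 passed the test in limma (0.185% of all genes passed as higher). At an unadjusted p under 0.05, 5 were higher (Ubb, Psme2, Psmb10, Adrm1 and Psmb9), against 9.52% of all genes, and 0 were lower. In 10 of the 33 all mature values stood above all immature values, against 16.7% of all genes. The median log2 fold change was 0.64, beside 0.61 for the constitutive subunits and 0.38 for all genes. These counts and medians are for FPKM as deposited. For the constitutive subunits the median fell to 0.11 with upper-quartile scaling and 0.29 with equal sums. The subunit genes without overlap fell from 13 to 2 and 3 under the same scalings. How far the values of the wider list depend on scaling was not tested. Uba6 did not pass the filter, at 0.136 to 1.16 FPKM.

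The activator gene Psme2, a subunit of a cytokine-induced cap, was at 42.2, 82.7 and 45.3 FPKM in immature and at 108, 158 and 214 FPKM in mature exosomes (log2 fold change 1.49 with SE 0.54, limma adjusted p = 0.406). The polyubiquitin gene Ubb was at 181, 247 and 101 FPKM and at 458, 509 and 653 FPKM (log2 fold change 1.68 with SE 0.59, limma adjusted p = 0.4). As deposited, neither gene overlapped between groups. Overlap under the other scalings is not given for the genes of this list. Rps27a, which encodes ubiquitin fused to a ribosomal protein and was the most abundant gene of the list, was at 545, 179 and 1369 FPKM and at 144, 954 and 432 FPKM, with overlapping groups. The assembly factor gene Pomp was at 21.8, 23.5 and 27.1 FPKM and at 30.4, 49.4 and 40.5 FPKM, and the unfoldase gene Vcp at 20.0, 25.2 and 23.9 FPKM and at 34.9, 37.2 and 37.1 FPKM, both without overlap as deposited. Their log2 fold changes were 0.69 and 0.64, and neither passed the test. The most abundant genes of the remaining classes were Sem1, a small lid subunit gene (29.3, 62.8 and 36.7 FPKM against 20.8, 56.5 and 59.2 FPKM), Uba1, the ubiquitin-activating enzyme gene (13.9, 25.6 and 11.3 FPKM against 19.7, 36.1 and 51.9 FPKM), and Ddi2, the protease gene that processes Nfe2l1 (27.2, 7.55 and 87.4 FPKM against 7.57, 63.0 and 25.7 FPKM), and all 3 overlapped between groups.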

How the data were processed

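The authors deposited FPKM values per transcript for 6 libraries, per the file headers. Tools listed without a role in the submitters' processing notes are HISAT2 2.0.5, StringTie, cutadapt and STAR 2.5.2b. The same notes give hg19, a human build, but the identifiers are mouse Ensembl ones, and each of the 35 subunit genes overlapped its RefSeq position on GRCm38, which is the build used for positions. Per the labels' protocols, the kit was TruSeq. FPKM was summed over the transcripts of a gene name. Genes and transcripts that reached 0.5 FPKM in 3 or more libraries entered limma 3.58.1 (R 4.3.3, eBayes, trend and robust both set) as log2(FPKM + 1), without scaling or replicate block, and p-values were adjusted over the whole table. FPKM is not a count, and low values gave no whole reads. The limma step was also run on simulated data with noise drawn independently for each gene and library. Shifts shared by the genes of a library were not simulated. Ratios were compared with exact permutation tests in Python 3.11.15 with scipy 1.17.1.

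The subunit genes and lists were chosen with earlier results of these data known. Named were, in each class, the 3 most abundant genes, the 2 with the smallest p and the least abundant, together with Psmb5, Psmb6, Psmb7, Psmd4 and Psmd14. From the pathway list genes past the test and the most abundant of each class were named, and Nfe2l1, Psme2, Ubb and the genes at an unadjusted p under 0.05 were added with their values in view. Processed pseudogenes and paralogs may share reads with subunit genes. Alternatives were a pseudocount of 0.1, no filter, 4 scalings, coding transcripts only, libraries left out and a replicate block.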

Additional observations from a re-analysis of the deposited data

How the results depend on the processing

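The count of subunit genes past the test, 0, and of subunit transcripts past the test, 0, did not change under any alternative run. Few genes of any kind passed. Of all 10272 genes tested, 19 passed as reported. The fewest under an alternative was 1, without mature library 3, and the most was 77, without both immature library 2 and mature library 1. A count of 0 among 34 subunit genes therefore says little about the subunits. The count of subunit genes at an unadjusted p under 0.05 in limma, 4, was 0 with median-of-ratios scaling, 0 with upper-quartile scaling, 1 with quantile normalization, 1 with equal sums, 0 to 6 with 1 library left out, 14 without both immature library 2 and mature library 1, and 1 with the replicate block. The share of all genes moved too, from 9.52% to between 4.46% and 5.74% with the scalings, 3.77% to 16.9% with 1 library left out, 19.3% without both and 6.02% with the block. The median log2 fold change of 0.61 moved to 0.14, 0.11, 0.13 and 0.29 with median-of-ratios, upper-quartile, quantile and equal-sum scaling, and lay between 0.43 and 0.73 with 1 library left out. The 13 subunit genes without overlap, an alternative set chosen after seeing the data, became 1, 2, 2 and 3 under the same scalings, 13 to 21 with 1 library left out and 26 without both libraries.

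The difference in the log2 ratio of Psmb9 to Psmb6, -0.16, changed sign to 0.13 without immature library 2 and to 0.21 without both libraries, and ranged from -0.44 to 0.13 with 1 library left out.

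Dropping the filter or adding the replicate block leaves the log2 fold change of a gene as reported, so its sign could not change. Using coding transcripts only does the same for genes without a processed transcript. Such values are included in the counts that follow. Of 330 single-gene values under the alternatives, 301 kept their direction and 29 changed sign, and 0 passed the test. With median-of-ratios scaling these were Psma1 (-0.16), Psmb1 (-0.37), Psmb4 (-0.14), Psmc3 (-0.14), Psmc5 (-0.17) and Psmd14 (-0.20). With upper-quartile scaling they were Psma1 (-0.19), Psmb1 (-0.40), Psmb2 (-0.0084), Psmb4 (-0.17), Psmc3 (-0.16), Psmc5 (-0.20) and Psmd14 (-0.22). With quantile normalization they were Psma1 (-0.17), Psmb1 (-0.37), Psmb4 (-0.16), Psmc3 (-0.15), Psmc5 (-0.16) and Psmd14 (-0.21), and with equal sums Psma1 (-0.019), Psmb1 (-0.23), Psmc5 (-0.037) and Psmd14 (-0.058). With 1 library left out, Psmb1 ranged from -0.18 (mature library 2) to 0.54, being -0.11 when immature library 1 was left out, and Psma1 ranged from -0.065 (mature library 2) to 0.72. Psma5, below 0 with all libraries, ranged from -0.46 to 0.40 (mature library 1), being 0.32 when immature library 3 was left out and 0.21 without both libraries. The cause of these changes was not tested.

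Same-numbered libraries did not deviate together (r = -0.03, -0.45 and -0.13 across genes). Between differently numbered libraries r ranged from -0.41 (immature library 3 with mature library 1) to 0.53 (immature library 3 with mature library 2). Deviations within a group sum to 0, so these r values are not independent. The replicate block, under which 1 subunit gene had an unadjusted p under 0.05 in limma and 0 passed the test, is given only here. The unknown read depth limits what low values such as those of Psma8 can show.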
